A study of Mus musculus with 6 samples.

Results

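The genes described here encode Lsd1 (Kdm1a), its paralog Lsd2 (Kdm1b) and subunits of the CoREST corepressor and their paralogs, namely Rcor1, Rcor2, Rcor3, Hdac1, Hdac2, Hmg20b and Phf21a. These 9 genes were taken by name from 26180 genes with a curated RefSeq transcript on mm10. An Lsd1 peak belonged to a gene when its centre lay within the gene span or 10 kb either side. By this rule the genes held 24 of 43426 peaks of wild-type cells in myogenic medium, 12 of 18893 peaks of wild-type cells in adipogenic medium and 19 of 33533 peaks of LSD1(OE) cells in adipogenic medium.

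The peaks were called on chromatin of C2C12, an immortal line of mouse myoblasts that fuses into myotubes in low serum, after immunoprecipitation of Lsd1. Wild-type cells were kept in medium with 2% horse serum (myogenic) or in medium with 10% FCS and with isobutylmethylxanthine, indomethacin, dexamethasone, insulin, T3 and rosiglitazone (adipogenic), and LSD1(OE) cells in the adipogenic medium, and all were taken on day 1. LSD1(OE) cells are a line infected with a lentivirus that carries Flag-tagged LSD1 under a tetracycline-dependent promoter, selected with G418 and given doxycycline. The same antibody, raised against the C-terminus of Lsd1, was used in all 3 conditions. Each condition had 1 ChIP library and 1 input library, so the differences given here are between libraries and no replicate error can be had. Neither G418 nor doxycycline is listed for the wild-type cells, so LSD1 level, line, selection and drug cannot be told apart. A list of peaks measures neither LSD1 expression nor markers of the cell type, and whether the line was a clone is not given in the sources used here.

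Lsd1, the product of Kdm1a, removes methyl groups from histone H3 with FAD as cofactor. In the CoREST complex it is held by the scaffold Rcor1 together with the histone deacetylases Hdac1 and Hdac2, and further subunits contact DNA or the histone tail. The complex is known as a corepressor that transcription factors bring to promoters. The question put to these data was whether Lsd1 sits at its own gene, its paralog's and those of its complex, and whether that occupancy differed between the libraries.

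The sequences below are shown because they lie under the peaks on which the results turn. The first is the stretch upstream of Phf21a where the summits of the 3 libraries coincided, the second an intron of Kdm1a, and the others lie at the promoters of Kdm1a, Rcor1 and Hdac1, which had a peak in myogenic medium and none in wild-type adipogenic medium. All were read from the RefSeq copy of mm10 (GRCm38.p6) and are printed 5′ to 3′ on the strand of the gene, clear of annotated exons. For Phf21a (chr2:92183318-92183468, plus strand) the capitals mark the 61 bases from the first to the last of the 3 summits. In the others the capitals mark matches to the motifs given further on. They span chr4:136598321-136598471 (Kdm1a intron, minus strand), chr4:136602788-136603038 (Kdm1a promoter, minus strand), chr12:111038493-111038743 (Rcor1, plus strand) and chr4:129542737-129542987 (Hdac1, minus strand).
Phf21a upstream: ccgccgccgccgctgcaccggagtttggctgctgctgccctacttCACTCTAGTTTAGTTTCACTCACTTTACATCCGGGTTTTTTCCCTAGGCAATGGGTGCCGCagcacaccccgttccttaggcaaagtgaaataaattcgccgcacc
Kdm1a intron: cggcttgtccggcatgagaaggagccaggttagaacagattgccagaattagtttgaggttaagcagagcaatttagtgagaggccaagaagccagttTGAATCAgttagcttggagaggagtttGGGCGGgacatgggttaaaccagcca
Kdm1a promoter: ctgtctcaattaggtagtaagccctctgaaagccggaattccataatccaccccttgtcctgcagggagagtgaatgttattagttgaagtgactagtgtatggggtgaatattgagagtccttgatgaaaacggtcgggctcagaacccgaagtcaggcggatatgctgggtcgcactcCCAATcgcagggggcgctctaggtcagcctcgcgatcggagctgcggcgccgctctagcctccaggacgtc
Rcor1 promoter: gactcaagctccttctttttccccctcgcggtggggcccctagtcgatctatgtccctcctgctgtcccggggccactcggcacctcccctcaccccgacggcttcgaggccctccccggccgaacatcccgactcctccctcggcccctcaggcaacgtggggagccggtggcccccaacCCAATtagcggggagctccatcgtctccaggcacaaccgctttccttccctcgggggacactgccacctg
Hdac1 promoter: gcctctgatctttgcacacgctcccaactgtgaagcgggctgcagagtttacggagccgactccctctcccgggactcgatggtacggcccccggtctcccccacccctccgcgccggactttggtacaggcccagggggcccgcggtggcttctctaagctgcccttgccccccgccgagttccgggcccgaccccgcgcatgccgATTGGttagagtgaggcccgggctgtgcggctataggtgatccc

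In myogenic medium Lsd1 had a peak at the promoter of every gene of the group. A promoter peak is one centred within 2000 bp of a curated TSS of the gene. Such peaks were found at 9 of 9 genes in the myogenic library, at 6 of 9 in the wild-type adipogenic library and at 7 of 9 in the LSD1(OE) library. Over all 26180 genes the shares were 46.8%, 27.0% and 37.3%, and over the 21000 genes with an mRNA record they were 51.6%, 30.0% and 41.2%. In the adipogenic library the missing genes were Kdm1a, Rcor1 and Hdac1, and in the LSD1(OE) library Kdm1a and Rcor1. A promoter peak in all 3 libraries was present at the other 6 genes, against 23.5% of all genes.

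Counted over the span and its flanks, 9 of 9 genes had a peak in the myogenic library, 7 of 9 in the adipogenic library and 9 of 9 in the LSD1(OE) library, compared with 62.5%, 41.2% and 53.9% of all genes. The flanked window grows with the gene. The spans ran from 4.41 kb at Hmg20b to 180.5 kb at Phf21a with a median of 39.5 kb, and the median over all genes was 13.5 kb, so the promoter counts are the closer comparison.

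**Figure D1:**
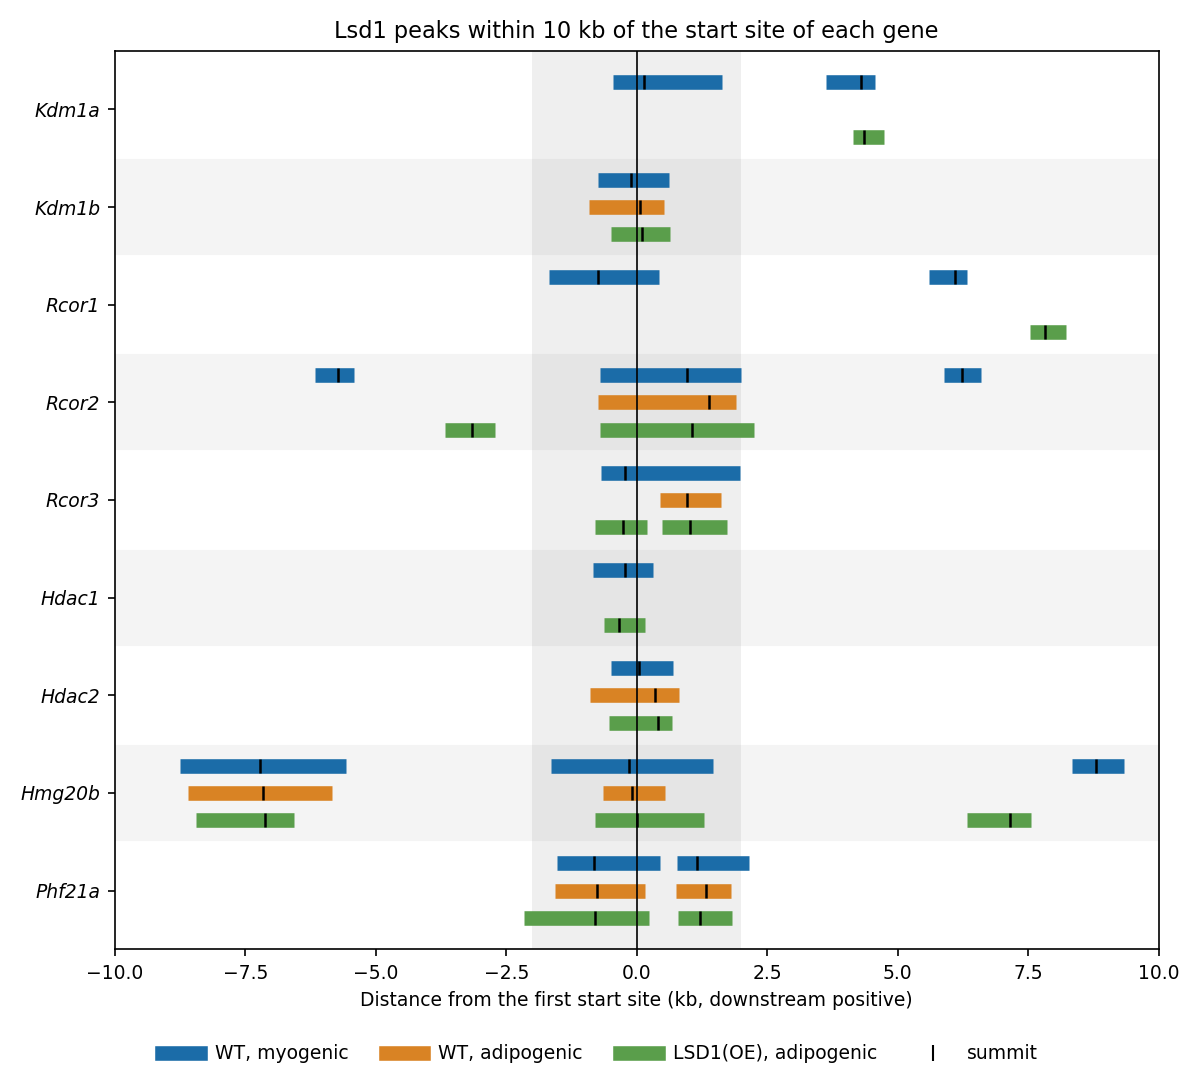
Lsd1 peaks within 10 kb of the first TSS of each gene. The x axis gives the distance from the TSS in kb, each bar is a called peak from start to end in wild-type myogenic (blue), wild-type adipogenic (orange) or LSD1(OE) (green) cells, black ticks are summits and the grey band is the promoter window. No orange bar is present at Kdm1a, Rcor1 or Hdac1, while the bars of Phf21a line up in all 3 libraries.

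Kdm1a encodes Lsd1 itself and lies on chromosome 4 of mm10 from 136550533 to 136602723, on the minus strand. Its myogenic promoter peak ran from 136601094 to 136603178, and held 123 tags. It scored 310.0, with a summit 133 bp downstream of the TSS. The score is 10 times −log10 of the p-value that MACS gave against the input, and 49.0% of the 12251 genes with a myogenic promoter peak scored lower at their strongest one. MACS scaled the ChIP tags up to the input by 1.90 in myogenic, 1.28 in adipogenic and 1.82 in LSD1(OE) cells. Scores of different libraries are therefore not on the same scale. In the adipogenic library no peak was present in the Kdm1a window, and the nearest one was 130981 bp away from the myogenic promoter peak. In LSD1(OE) cells the promoter had no peak, but an intron did. With a promoter of 5000 bp that intronic peak would count as a promoter peak.

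This intronic peak lay from 136597988 to 136598574, and held 33 tags, scoring 56.4 at an FDR of 0.4%. The myogenic library had a peak at the same place, from 136598152 to 136599104, where 59 tags gave a score of 167 at an FDR of 0.02%. The summits of these peaks were 52 bp apart, 4301 and 4353 bp downstream of the TSS. The LSD1(OE) peak was a weak one. Its score divided by the scale-up of 1.82 was 30.9, under the limit of 50 behind the cut-off of MACS. That division only approximates a score with ChIP tags not scaled up to the input. Of the LSD1(OE) peaks in the Kdm1a window, 0 of 1 touched an exon of the gene.

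Kdm1b encodes Lsd2, the second flavin-dependent histone demethylase of the family, which is not a stable part of CoREST. It kept its promoter peak in all 3 libraries, with 138 tags in myogenic, 120 in adipogenic and 86 in LSD1(OE) cells and scores of 762, 216 and 239. Divided by the scale-up of each library these scores were 402, 169 and 131. The gene lies on chromosome 13 from 47043499 to 47085279, and the joined peaks ran from 47042580 to 47044137. The place is shared with Tpmt, a thiopurine methyltransferase gene whose TSS is also within 2000 bp, and the adipogenic peak was centred 83 bp from the TSS of Tpmt and 199 bp from that of Kdm1b. When each peak went only to the nearest TSS, Kdm1b had no adipogenic promoter peak. LSD1(OE) cells also had weak Kdm1b peaks 25978 bp inside the gene and in the downstream flank towards Dek, a gene for a chromatin protein. They scored 51.3 and 50.8.

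The CoREST scaffolds did not show the same picture at each paralog. Rcor1, on chromosome 12 from 111039367 to 111115902, had a myogenic promoter peak of 2098 bp with 152 tags and a score of 541, whose summit lay 749 bp upstream of the TSS. No adipogenic peak was present in the Rcor1 window, and the closest was 15893 bp from that peak. LSD1(OE) cells had no Rcor1 promoter peak either. Their peak in the first part of the gene, centred 7878 bp downstream of the TSS, had 37 tags and a score of 55.2 and did not overlap the myogenic peak 5968 bp downstream, with 39 tags and a score of 88.1.

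Rcor2 had the highest promoter score of the 9 genes in the myogenic library. The peaks of the 3 libraries covered nearly the same ground at the 5′ end of the gene (chromosome 19, 7267394 to 7275225), with lengths of 2702, 2660 and 2958 bp in myogenic, adipogenic and LSD1(OE) cells. They held 282, 238 and 283 tags, with scores of 1594, 470 and 1106. Among genes with a promoter peak these scores stood at percentile 97.2, 91.9 and 95.5 of their libraries. The summits lay 955, 1394 and 1057 bp downstream of the first TSS, past the second TSS of the gene as well. Other peaks lay around them. In myogenic cells weak peaks lay 5789 bp upstream with 36 tags and 5357 bp downstream with 35 tags of the nearest Rcor2 TSS. In LSD1(OE) cells a peak 3187 bp upstream of that TSS had 63 tags and a score of 136, at percentile 56.6 of that library.

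Rcor3, on chromosome 1 from 192098546 to 192138040, had a single broad myogenic peak of 2655 bp with 203 tags and a score of 774. In the adipogenic library a peak of 1161 bp with 90 tags and a score of 142 remained, and its summit was 954 bp downstream of the TSS, whereas the myogenic summit was 232 bp upstream. LSD1(OE) cells had a peak on each side, with 60 tags upstream and 97 tags downstream and scores of 113 and 252. The downstream peaks and the myogenic peak were centred nearest to the TSS of Gm10516, a gene model within the same window, and with each peak given only to its nearest TSS only the LSD1(OE) library kept one for Rcor3. The summits of the strongest Rcor3 peaks were spread over 1254 bp, the widest range among the genes with a promoter peak in more than 1 library. The adipogenic peak was centred 1028 bp from the TSS of Rcor3, and with a promoter of 1000 bp it was not counted.

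The deacetylase genes Hdac1 (chromosome 4, 129516104 to 129542646) and Hdac2 (chromosome 10, 36974544 to 37001888) had similar myogenic promoter peaks. Hdac1 had 91 tags and a score of 375, and Hdac2 had 95 tags and a score of 395. Hdac2 kept its peak in the adipogenic library with 119 tags and a score of 145, and in LSD1(OE) cells with 80 tags and a score of 171. Divided by the scale-up of each library these 2 scores were 113 and 93.5, in the other order. At Hdac1 no adipogenic promoter peak was called, and the LSD1(OE) peak of 47 tags scored 86.2 at an FDR of 0.21%.

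That LSD1(OE) peak did not hold under stricter settings. Limits of 0.1% on the FDR or 100 on the score removed it, and so did cutting each list to its 18893 best peaks or leaving ChIP tags unscaled, where it would score 47.2. Hdac1 was the single gene of the group with a promoter peak in LSD1(OE) and not in wild-type adipogenic cells, 1 of 9 against 13.4% of all genes.

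The Hdac1 window also reaches the promoter of Marcksl1, a gene for a membrane-bound actin regulator that lies downstream of Hdac1. Its peak was called in every library, with 72 tags in myogenic, 75 in adipogenic and 78 in LSD1(OE) cells and scores of 240, 96.7 and 176. In myogenic cells the Hdac1 promoter peak was the stronger of this pair, and in adipogenic cells the Marcksl1 peak was the only peak of the window.

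Hmg20b encodes BRAF35, an HMG-box protein of the complex that binds DNA. It is the shortest gene of the group, on chromosome 10 from 81346046 to 81350457. Its promoter peak was 3105 bp long with 278 tags and a score of 1237 in myogenic cells, 1198 bp long with 95 tags and a score of 158 in adipogenic cells, and 2095 bp long in LSD1(OE) cells, where its 201 tags scored 791. The summits stayed within 147 bp of each other. A second strong region in its window belonged to the promoter of Mfsd12, a transporter gene, with 238, 230 and 149 tags in the same order.

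Phf21a encodes BHC80, the subunit with a PHD finger that reads the unmodified histone tail, and lies on chromosome 2 from 92184182 to 92364666. Its upstream peak held 232 tags in myogenic, 322 in adipogenic and 449 in LSD1(OE) cells. The scores were 1486, 1584 and 3100, at percentile 96.7, 99.5 and 99.6 of genes with a promoter peak. Exactly 3100 was given to 37 peaks of the LSD1(OE) library, so it does not rank them among each other. The summits lay 819, 759 and 791 bp upstream of the first TSS, which is a spread of 60 bp and the narrowest among the genes with a promoter peak in all 3 libraries.

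A second Phf21a peak lay at an alternative TSS from 92184930 to 92186326, with 77, 75 and 84 tags and scores of 194, 101 and 267. The 151 bases printed for the upstream peak had a GC content of 55.6% and 10 CpG dinucleotides. The shorter Phf21a transcript that begins at an internal TSS had no promoter peak in any library. Its nearest peak was myogenic, centred 5537 bp upstream, with 29 tags and a score of 54.7. A weak peak far downstream in the gene, joined from 92330635 to 92332110, was called in both wild-type libraries, with scores of 62.6 and 60.3, and lay nearest to the TSS of Large2, a glycosyltransferase gene. In the downstream flank a myogenic peak of 28 tags scored 53.2 near Pex16, a gene for a peroxisome protein.

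**Figure D2:**
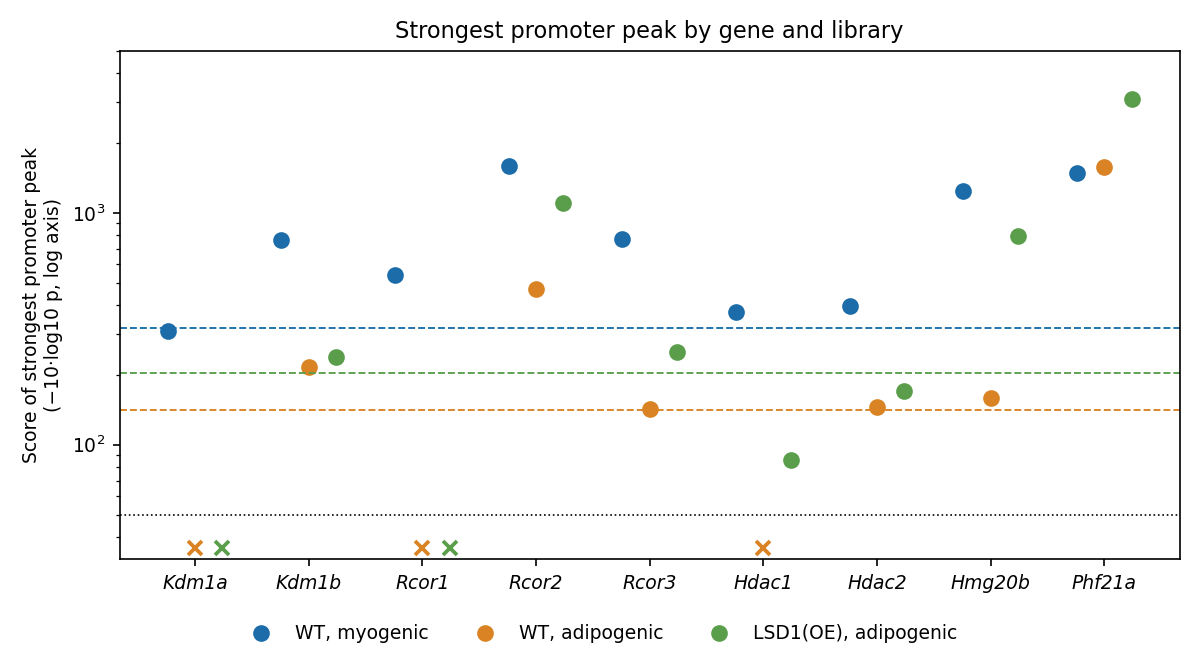
Score of the strongest promoter peak of each gene on a log axis. Points are wild-type myogenic (blue), wild-type adipogenic (orange) and LSD1(OE) (green) libraries, crosses mark libraries with no promoter peak, the dotted line is the score of 50 behind the MACS cut-off and dashed lines are the medians over all genes with a promoter peak (319, 141 and 204). Scores of different libraries are not on the same scale. Phf21a is the gene whose adipogenic score of 1584 was not below its myogenic score of 1486.

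Of the 9 genes, 3 had a promoter peak in myogenic and not in wild-type adipogenic cells, against 20.7% of all genes. By the wider window there were 2 such genes, Kdm1a and Rcor1, against 22.2% of all genes. The same 2 genes had a window peak in LSD1(OE) and not in adipogenic cells, against 15.5% of all genes, and in both it was the weak intronic peak. That last count was 0 with each list cut to its 18893 best peaks and with ChIP tags not scaled up.

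The genes without an adipogenic promoter peak were among those with lower myogenic scores. Kdm1a, Hdac1, Hdac2 and Rcor1 had the 4 lowest, from 310.0 to 541, and 1 of them, Hdac2, had an adipogenic promoter peak. Over all 2845 genes with a score in that range, 66.2% had one. In LSD1(OE) cells 2 of these 4 genes had a promoter peak, and 85.9% of all genes in the range did. The other 5 genes, with scores from 762 to 1594, all had a promoter peak in both adipogenic libraries, as did 94.8% and 98.5% of the 1551 genes in that range. Genes are not replicates and no test was made.

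The adipogenic library was the deepest. After the duplicate filter it held 63915769 ChIP tags, against 46155625 in myogenic and 55193310 in LSD1(OE) cells. At the myogenic tag density the Kdm1a, Rcor1 and Hdac1 promoter peaks would have held 170, 210 and 126 tags in it, and the smallest peak of that list had 35. At 2988 strong peaks shared by all 3 libraries, with a score of at least 200 in each, however, the adipogenic density was lower than the myogenic by 0.34 on the log2 scale. With that ratio applied the numbers would be 134, 166 and 99.3 tags. Tag counts grow with length, so the smallest peak is not a like measure for these regions. They were 2085, 2098 and 1147 bp long in the myogenic list, and the median adipogenic peak had 85 tags with a median length of 1138 bp. The tags in regions without a peak were not analysed here, so an absent peak says that the region did not pass the MACS cut-off, not that Lsd1 was absent. The parts of the lower density and of the smaller scale-up in the missing calls were not tested.

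Tag density was compared where both libraries had a promoter peak. Density is given as tags per kb of called peak and per 1000000 ChIP tags, peaks of a library that overlap the same peak of the other are joined, and a 95% exact interval of the ratio covers counting error only. In myogenic medium the densities of the strongest promoter peaks ran from 1.28 at Kdm1a to 2.54 at Phf21a. In adipogenic medium they ran from 1.09 at Hdac2 to 2.91 at Phf21a, and in LSD1(OE) cells from 1.08 at Hdac1 to 3.41 at Phf21a.

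**Figure D3:**
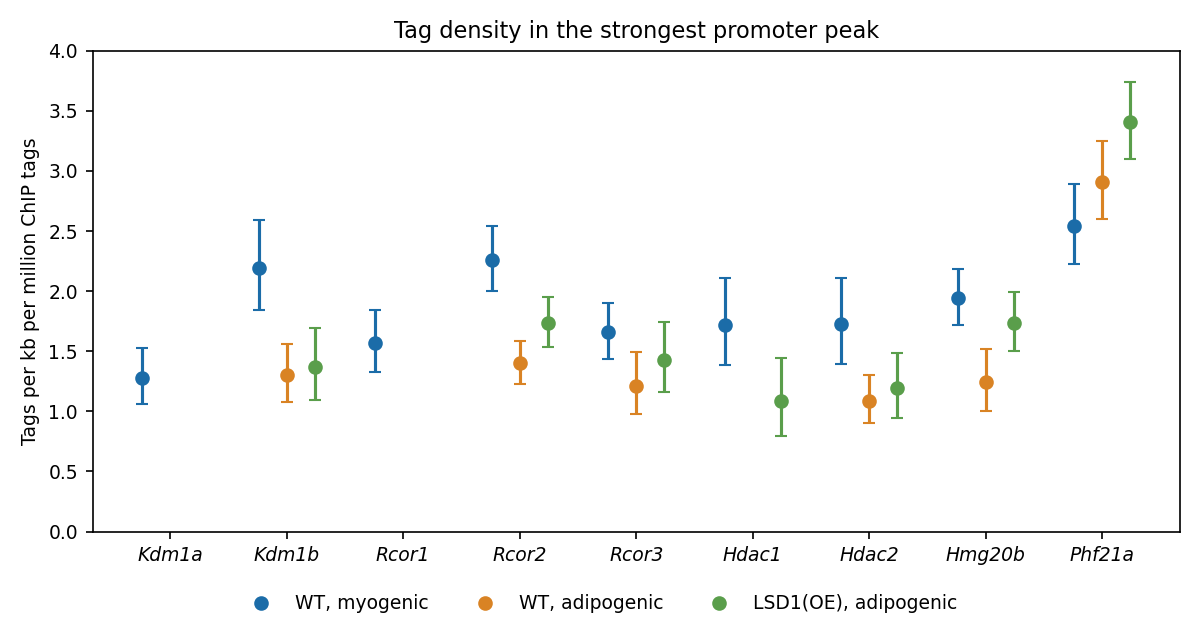
Tags per kb and per 1000000 ChIP tags in the strongest promoter peak of each gene in wild-type myogenic (blue), wild-type adipogenic (orange) and LSD1(OE) (green) cells, with 95% Poisson intervals that cover counting error only. No point is drawn where no promoter peak was called. Phf21a reached 3.41 in LSD1(OE) cells, above every other point.

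Adipogenic density was below myogenic density at 5 of 6 genes by more than the counting error. The log2 ratios were -0.75 at Kdm1b, -0.69 at Rcor2, -0.67 at Hdac2, -0.64 at Hmg20b and -0.45 at Rcor3. At Hmg20b and Rcor3 the called peaks were much shorter in the adipogenic library, the ratios without division by length were -2.02 and -1.64, and neither gene gave a ratio when each peak had to cover 50% of the other. Phf21a had 0.20 with an interval from -0.05 to 0.45 that held 0, and 0.0033 without division by length. The median over the 6 genes was -0.66, and over 6029 promoter regions shared by these libraries it was -0.44, with 4.48% of regions above 0. Phf21a stood at percentile 99.4 of those regions. When the shift of 0.34 at the strong shared peaks was taken out, Kdm1b with -0.41 and Rcor2 with -0.35 stayed lower. Phf21a was higher with 0.54 (interval 0.29 to 0.79), and the intervals of the other 3 genes held 0. The lower values of Kdm1b and Rcor2 depend on that choice of shift. Before it, their intervals ran from -1.118 to -0.389 and from -0.947 to -0.438, and both held the median of -0.444 over the shared promoter regions.

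Between the adipogenic libraries the densities were closer. LSD1(OE) over wild-type density was 0.49 on the log2 scale at Hmg20b (interval 0.13 to 0.85), 0.31 at Rcor2 (0.05 to 0.56) and 0.23 at Phf21a (0.02 to 0.44). At Rcor3, Hdac2 and Kdm1b the ratios were 0.24, 0.13 and 0.07, with intervals that held 0. The median over the 6 genes was 0.23, and over 5497 shared promoter regions it was 0.15, with 73.7% above 0. At Hmg20b the lengths of the called peaks differed widely, and without division by length its ratio was 1.29 and that of Phf21a 0.69. On that scale the ratios of Rcor2 and Rcor3 were 0.46 and 0.32, and those of Hdac2 and Kdm1b turned negative, with -0.36 and -0.27. With the strong shared peaks set equal, the intervals of all 6 genes held 0.

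LSD1(OE) density was below the myogenic at 5 of 7 genes by more than the counting error, from -0.37 at Rcor3 to -0.68 at Kdm1b. Hmg20b had -0.16 with an interval that held 0. Phf21a was higher in LSD1(OE) cells by 0.42 (interval 0.19 to 0.66), at percentile 99.3 of 7863 shared promoter regions. The median of those regions was -0.29, with 15.7% of them above 0, so lower density was the general pattern. Without division by length the Phf21a ratio was 0.69. With the strong shared peaks set equal, Kdm1b was lower with -0.49, Phf21a was higher with 0.62, and the intervals of the other 5 genes held 0. Before that scaling the interval of Kdm1b ran from -1.087 to -0.282 and held the median of -0.287 over the shared promoter regions. Each comparison uses a library that another one also uses, so the 3 sets of ratios are not independent of each other.

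**Figure D4:**
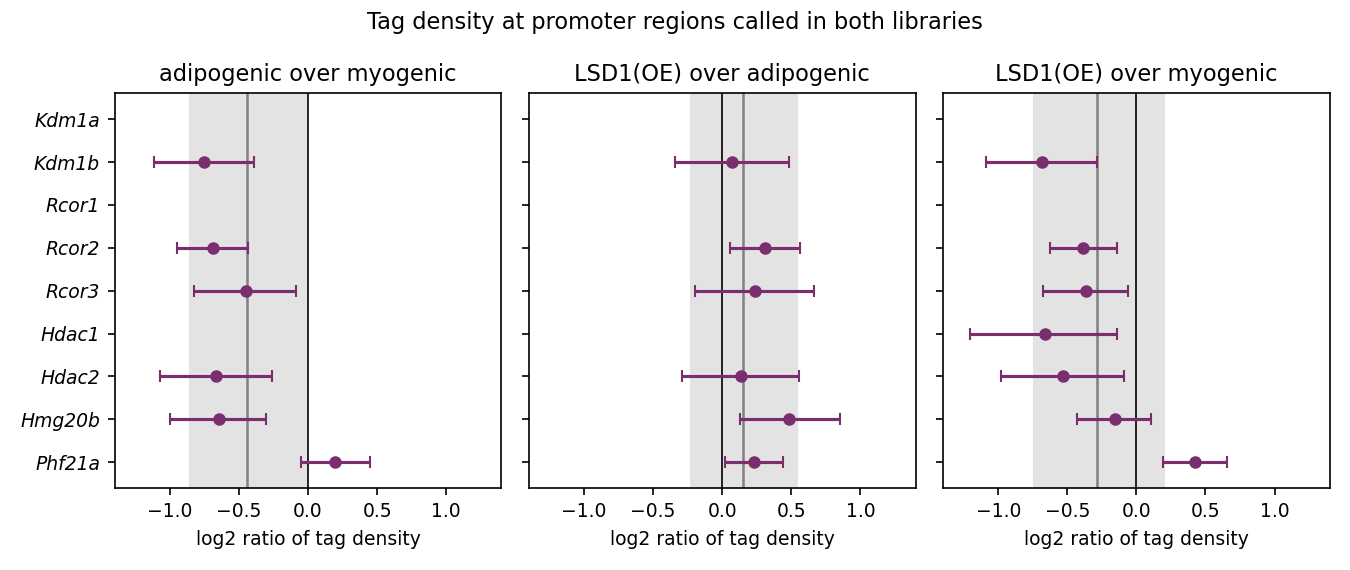
Log2 ratio of tag density at promoter regions with a peak in both libraries of each pair. Points are genes with 95% counting intervals, the grey line is the median over all shared promoter regions and the grey band runs from percentile 5 to percentile 95 of those regions. Phf21a lies to the right of the band in both comparisons with the myogenic library, at 0.20 and 0.42.

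Peaks at no promoter were seldom shared between the libraries. Joined over the libraries, the windows held 29 regions, of which 10 were at promoters of the 9 genes, 6 at promoters of neighbours and 13 at neither. Of the own promoter regions 7 of 10 were called in all 3 libraries, and of the 13 other regions 1 was. That region lay on chromosome 1 from 192089579 to 192090775 in the downstream flank of Rcor3, centred between 2223 and 2603 bp from the TSS of Traf5, a gene for an adaptor of TNF receptors. The Traf5 promoter itself had peaks with 137, 80 and 80 tags in myogenic, adipogenic and LSD1(OE) cells. Outside promoters the scores reached 167 in myogenic, 119 in adipogenic and 136 in LSD1(OE) cells, and the weakest peaks at promoters of the 9 genes scored 194, 101 and 86.2.

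The bases under the promoter summits were rich in G and C. In 301 bases around the summit the median GC content of the 10 myogenic promoter peaks was 70.9%, and that of all 12479 myogenic promoter peaks was 62.1%. The ratio of observed to expected CpG was 0.93 and 0.73. The 14 other myogenic peaks of the windows had medians of 50.3% and 0.23, and all 43426 myogenic peaks had 51.5% and 0.25. For the 7 adipogenic and 9 LSD1(OE) promoter peaks the median GC content was 68.4% and 70.1%.

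Motifs were searched as letters on both strands of the same windows. The GC box GGGCGG, which Sp1-type factors bind, was present at 9 of 10 myogenic promoter peaks of the group, against 54.3% of all myogenic promoter peaks. The exception was Rcor1, whose summit lay 749 bp upstream of the TSS. Its peak did cover GC boxes, with 6 matches from 111039117 to 111039416 around the TSS. GGGCGG was found at the summits of 5 of 7 adipogenic and 8 of 9 LSD1(OE) promoter peaks, against 56.0% and 52.9%. The E-box CAGCTG, bound by MyoD and myogenin, was present at 3 of 10 (Kdm1b, Rcor2 and Rcor3), against 19.3%, and CCAAT, bound by NF-Y, at 3 of 10 (Hdac1, Hmg20b and Rcor1), against 29.3%. The AP-1 pattern TGANTCA, the ETS pattern CCGGAAG and the RE1 letters TTCAGCACC of REST were found at 0 of 10, and at 6.90%, 11.6% and 0.809% of all myogenic promoter peaks.

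Each of the printed promoter stretches of Kdm1a, Rcor1 and Hdac1 held 1 CCAAT, on the opposite strand at Hdac1, and 25.0% of windows of 251 bases at myogenic promoter summits held it. The Kdm1a stretch does not contain the summit, which lies inside the gene. The Kdm1a intron held TGANTCA (as TGAATCA) and GGGCGG within its 151 bases, and 10.6% and 13.2% of all myogenic peaks held each within that length. A match is a description of the letters and not of a bound factor.

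Further subunits and partners were looked at as a list of 18 genes of CoREST-linked proteins and of NuRD, a remodelling and deacetylase complex that Lsd1 is also known to join. A promoter peak was present at 15 of 18 in myogenic, 8 of 18 in adipogenic and 13 of 18 in LSD1(OE) cells, against 46.8%, 27.0% and 37.3% of all genes. The highest myogenic scores were at Gse1, a CoREST-associated protein, with 3002, at Mbd3, a NuRD subunit, with 1398, and at Zmym2, a zinc finger protein of CoREST, with 1189. In adipogenic medium they were 2006, 236 and 169, and in LSD1(OE) cells 3100, 657 and 436. Of the 18 genes, 8 had a promoter peak in myogenic and not adipogenic cells, against 20.7% of all genes, and 5 in LSD1(OE) and not adipogenic cells, against 13.4%.

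The genes whose 3 promoter scores were most like those of Kdm1a were Atp6v1d, Eif2s1 and Ak6, among 13172 genes with a promoter peak in any library. The myogenic score was 309.8 at each of them, with no promoter peak in the other libraries. Atp6v1d and Eif2s1 had the identical score of 309.82, and whether the same peak was counted for both was not examined. With 3 values per gene this likeness is loose, and 60 genes lay within a distance of 0.05 on the log2 scale.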

How the data were processed

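Lsd1 ChIP-seq and input libraries of 3 conditions (6 samples, 1 of each kind per condition) were grouped by the sample titles. Per the file headers and the methods, the authors mapped 50 bp reads to mm10 with Bowtie. MACS 1.4.2 then took every ChIP library with the input of that condition, nothing pooled, with a p cut-off of 1e-05 and at most 2 (ChIP) or 3 (input) tags per position. The input libraries held 87508211, 81567427 and 100711088 tags after that filter in myogenic, adipogenic and LSD1(OE) cells, and the ChIP libraries 46155625, 63915769 and 55193310. The deposited tag counts per peak are not normalized. As deposited, the score equals −log10 of the p-value multiplied by 10, and MACS had scaled the ChIP tags up to the larger input. That scale-up was 1.90 in myogenic, 1.28 in adipogenic and 1.82 in LSD1(OE) cells, so scores are not on the same scale in different libraries. Scores with ChIP tags not scaled up were approximated by dividing the score by that ratio of input to ChIP tags, and no peak was called anew. The deposited fold enrichment, a ratio to the local background, differs in scale between the libraries and was not used. The deposited FDR is in percent, and every peak was below 1%.

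Here peaks were placed by their centres on curated RefSeq transcripts (GRCm38.p6), with a flank of 10 kb and a promoter of 2000 bp either side of any TSS of the gene, the authors' own promoter limit. Overlapping peaks (at least 1 bp) were joined for ratios. Intervals are exact at 95% and cover counting error only, since tags are not independent molecules. There were no replicates, so no test between conditions was made. The members, the 18 partner genes and the motifs were chosen with earlier results of these data known. All members are named, as are the genes with the TSS nearest to each peak in their windows, the 3 partners with the highest myogenic scores and the 3 genes most like Kdm1a. Alternatives were stricter FDR and score limits, equal peak numbers, unscaled tags, other flanks, promoter windows, placements and transcripts, and other density scales. On simulated peaks 200 of 200 planted promoter peaks were found, and 95.3% of 2000 simulated intervals held the true ratio. Python 3.11.15, NumPy 2.4.6, pandas 2.3.3 and SciPy 1.17.1 were used.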

Additional observations from a re-analysis of the deposited data

How the results depend on the processing

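No paired analysis was possible because each group has 1 sample. Of 135 recomputed counts and medians, 124 stayed within 1.5 times the value given or within its counting interval, 11 moved further and 0 reversed. At an FDR of at most 0.1% the windows held 11 LSD1(OE) peaks, and 1 gene (Hdac1) had a window peak in LSD1(OE) and not adipogenic cells, as it did at a score of at least 100. In both cases that was the peak at the Marcksl1 promoter, and the Hdac1 promoter peak was lost. That count was 0 at equal peak numbers and 0 with ChIP tags not scaled up, and 5 with the gene span only. Equal peak numbers left 15 myogenic peaks in the windows. With the gene span only, which drops promoter peaks centred just upstream of the TSS, the windows held 10 myogenic, 4 adipogenic and 9 LSD1(OE) peaks, and 3 genes had an adipogenic peak. No adipogenic promoter peak was counted at Kdm1a, Rcor1 or Hdac1 under the 9 promoter settings run. None of these loosened the MACS cut-off, and most could only remove adipogenic peaks or left that list as it was. The nearest adipogenic peaks were 130981, 15893 and 28296 bp from the myogenic promoter peaks, beyond the widest promoter of 5000 bp. This outcome therefore does not show how firm the missing calls are. Where each peak had to cover 50% of the other, Rcor3 gave no ratio to the myogenic library and Hmg20b none for adipogenic over myogenic. Of 54 ratios for single genes 42 stayed within their counting intervals and 12 moved, 9 of them without division by length, where adipogenic over myogenic was -0.14 at Hdac2 and LSD1(OE) over adipogenic was -0.36 at Hdac2.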

Other observations

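Among the partner genes Chd3, which encodes a remodelling ATPase of NuRD and was singled out after its values were seen, had a promoter peak in both adipogenic libraries and none in the myogenic library, with scores of 77.0 in wild-type and 123 in LSD1(OE) cells. None of the 9 genes Kdm1a, Kdm1b, Rcor1, Rcor2, Rcor3, Hdac1, Hdac2, Hmg20b and Phf21a had that pattern. The wild-type adipogenic peak of Chd3 was lost at an FDR of at most 0.1% and at a score of at least 100, and the LSD1(OE) peak at the former. With a promoter of 1000 bases neither was counted, and with 5000 bases or predicted transcripts included the myogenic library had a Chd3 peak too.

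In the Hmg20b window, peaks near Gipc3 differed in place between the libraries. The LSD1(OE) peak was centred 158 bp upstream of the TSS of Gipc3, with 67 tags and a score of 107, and the myogenic peak 1747 bp downstream, with 58 tags and a score of 147. The wild-type adipogenic library had neither.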
